A study of Mus musculus with 24 samples.

Results

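The genes described here mostly encode enzymes and binding proteins that write, erase and read marks on histones or move nucleosomes. They were chosen by symbol among 20807 autosomal protein-coding mouse genes: symbols beginning with Kdm, Kmt, Kat, Hdac, Setd, Prmt, Chd, Smarc, Cbx, Phf or Brd, together with Ezh1, Ezh2, Suz12, Eed, Ep300, Crebbp, Arid1a, Arid1b, Nsd1, Ehmt1 and Ehmt2. The symbols selected 134 genes, 6 of which were set apart as no chromatin proteins (among them the choline dehydrogenase gene Chdh). Brd3os, counted with the Brd genes, also matched by symbol only, and had no DhMR. Of the 20726 differentially hydroxymethylated regions (DhMRs) deposited, 210 belonged to these genes, either because they lay wholly inside the gene's span or because the authors' list carried the gene's identifier.

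The DhMRs came from antibody capture of DNA with 5-hydroxymethylcytosine (5hmC-DIP) in mouse embryonic stem cells of a mixed C57BL/6J-129V background, kept in 2i medium with LIF. All cells lacked Tet1, Tet2 and Tet3 and carried a lentiviral, Flag-tagged, full-length human Tet3, which was wild-type in the line Wt25 and had both phosphorylated serines replaced by alanine in the line AA10. Each line was 1 clone, so a difference between the forms of Tet3 and a difference between the clones cannot be told apart. There were 3 libraries of each line, and the 2 lists give bins of which 198 bp are listed, higher in Wt25 or higher in AA10, called by the authors over the 3 libraries of each line. The lists give no value of a single library, fold change or depth for a DhMR, so no test over samples could be made from them. Shares below carry 95% Wilson intervals, which cover counting error only and treat DhMRs as independent, although 18.1% of the 210 touched another DhMR of their list.

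Tet enzymes oxidise 5-methylcytosine to 5hmC, mostly at CpGs, and 5hmC is found in the bodies of active genes and at enhancers. Histone methyltransferases and acetyltransferases are called writers, demethylases and deacetylases erasers, and proteins with chromodomains, bromodomains or PHD fingers readers. Polycomb repressive complex 2 (PRC2) methylates lysine 27 of histone H3 (H3K27), which the chromobox subunits of Polycomb repressive complex 1 (PRC1) bind. SWI/SNF and CHD proteins use ATP to move or evict nucleosomes. In embryonic stem cells some of these factors, among them the Polycomb complexes, help to hold developmental genes in a state from which they can be switched on.

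The sequences below belong to DhMRs in promoters, in coding exons and assigned to the genes with most DhMRs in each direction. That of Kat6b lies in the gene Adk, 172 kb upstream of Kat6b. They were read from the mouse genome GRCm38.p6, strand +, with each CpG, the usual site of 5hmC, in capitals.
Cbx7 promoter, nearer, chr15:79932603-79932800, 30 CpGs, higher in Wt25: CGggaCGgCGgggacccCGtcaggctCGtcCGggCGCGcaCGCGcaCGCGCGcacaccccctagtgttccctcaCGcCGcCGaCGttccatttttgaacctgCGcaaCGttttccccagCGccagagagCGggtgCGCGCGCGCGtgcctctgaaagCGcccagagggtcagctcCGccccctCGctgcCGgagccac
Cbx7 promoter, farther, chr15:79933403-79933600, 14 CpGs, higher in Wt25: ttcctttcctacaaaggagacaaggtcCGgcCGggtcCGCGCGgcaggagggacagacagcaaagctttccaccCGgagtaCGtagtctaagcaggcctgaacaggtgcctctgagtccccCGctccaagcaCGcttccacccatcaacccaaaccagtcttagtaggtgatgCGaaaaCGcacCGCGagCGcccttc
Smarcd1 promoter, nearer, chr15:99701803-99702000, 9 CpGs, higher in AA10: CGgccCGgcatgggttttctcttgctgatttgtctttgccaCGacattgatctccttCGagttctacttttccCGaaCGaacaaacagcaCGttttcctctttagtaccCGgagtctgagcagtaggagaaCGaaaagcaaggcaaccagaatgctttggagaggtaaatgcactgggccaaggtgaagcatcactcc
Smarcd1 promoter, farther, chr15:99701603-99701800, 8 CpGs, higher in AA10: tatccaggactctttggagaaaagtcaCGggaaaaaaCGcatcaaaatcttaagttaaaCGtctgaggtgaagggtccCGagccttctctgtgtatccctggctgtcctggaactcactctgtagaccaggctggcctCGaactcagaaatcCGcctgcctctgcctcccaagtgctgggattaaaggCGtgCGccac
Brd9 intron 2, chr13:73938603-73938800, 7 CpGs, higher in Wt25: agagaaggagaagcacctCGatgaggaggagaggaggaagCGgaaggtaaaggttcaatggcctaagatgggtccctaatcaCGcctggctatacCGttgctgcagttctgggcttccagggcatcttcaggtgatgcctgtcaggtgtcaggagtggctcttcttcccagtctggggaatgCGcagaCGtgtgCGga
Setd4 intron 6, chr16:93591403-93591600, 6 CpGs, higher in Wt25: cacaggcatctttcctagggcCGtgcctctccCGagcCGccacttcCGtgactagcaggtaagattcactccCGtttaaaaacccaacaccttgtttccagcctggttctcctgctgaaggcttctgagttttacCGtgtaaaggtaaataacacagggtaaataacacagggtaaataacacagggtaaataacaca
Kat2b exon 10, chr17:53653003-53653200, 6 CpGs, higher in Wt25: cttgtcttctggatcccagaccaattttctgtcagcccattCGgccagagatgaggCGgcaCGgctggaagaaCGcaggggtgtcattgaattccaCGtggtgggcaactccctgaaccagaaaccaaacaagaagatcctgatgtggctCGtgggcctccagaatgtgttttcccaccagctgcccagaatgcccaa
Kdm2a exon 17, chr19:4324803-4325000, 13 CpGs, higher in Wt25: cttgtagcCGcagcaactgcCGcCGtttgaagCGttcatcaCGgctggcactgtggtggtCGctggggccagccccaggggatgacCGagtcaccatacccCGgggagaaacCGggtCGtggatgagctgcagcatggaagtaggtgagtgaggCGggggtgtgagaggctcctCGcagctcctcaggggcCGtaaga
Brd1 exon 6, chr15:88712603-88712800, 10 CpGs, higher in AA10: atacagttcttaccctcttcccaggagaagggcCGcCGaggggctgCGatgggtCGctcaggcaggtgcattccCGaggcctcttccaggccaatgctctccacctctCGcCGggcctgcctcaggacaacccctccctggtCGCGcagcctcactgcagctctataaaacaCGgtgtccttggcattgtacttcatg
Kat6b, 172 kb upstream, chr14:21309203-21309400, 7 CpGs, higher in AA10: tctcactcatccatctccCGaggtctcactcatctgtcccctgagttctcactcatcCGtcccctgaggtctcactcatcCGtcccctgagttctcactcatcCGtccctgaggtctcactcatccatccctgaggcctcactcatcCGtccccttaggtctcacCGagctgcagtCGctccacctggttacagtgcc
The nearer Cbx7 sequence held 30 CpGs in 198 bp, the highest number among the 210 DhMRs. The Kat6b sequence is of a different kind: the 10 bases ctcactcatc occurred 7 times in it. In the Setd4 sequence the 10 bases aaataacaca occurred 4 times.

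DhMRs were found at 69 of the 134 genes (51.5%, interval 43.1 to 59.8), against 34.9% of all autosomal protein-coding genes. A DhMR higher in Wt25 was present at 49 genes (36.6%, against 22.8% of all genes) and one higher in AA10 at 33 genes (24.6%, against 17.0%). DhMRs of both directions were found at 13 genes (9.70%, against 4.95%), and 3 or more DhMRs at 23 genes (17.2%, against 9.91%). The remaining 65 genes had none, and 33 genes had exactly 1. The 134 genes were longer than the others, with a median span of 40.3 kb against 17.6 kb. Among genes under 20 kb, 36.4% of the 33 chromatin genes had a DhMR, against 23.1% of all genes of that length. The shares were 47.8% against 39.4% from 20 to 50 kb, 57.1% against 49.7% from 50 to 100 kb, and 75.0% against 65.4% at 100 kb or more.

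The direction was uneven. Of the 210 DhMRs, 147 were higher in Wt25 and 63 in AA10. The share higher in Wt25 was 70.0% (63.5 to 75.8), against 58.8% of the 17935 DhMRs that belonged to any autosomal protein-coding gene. A few genes carried this difference: without Kat2b the share was 67.0%, and without Kat2b, Phf20, Cbx7 and Phf12, the 4 genes with most DhMRs, it was 58.9% (51.0 to 66.5), next to the share over all genes. Per megabase of gene span there were 13.2 DhMRs higher in Wt25 and 4.91 higher in AA10 inside the chromatin genes, against 6.67 and 4.14 inside all genes. Without Kat2b, Phf20 and Cbx7 these densities were 8.33 and 5.07 per megabase.

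**Figure D1:**
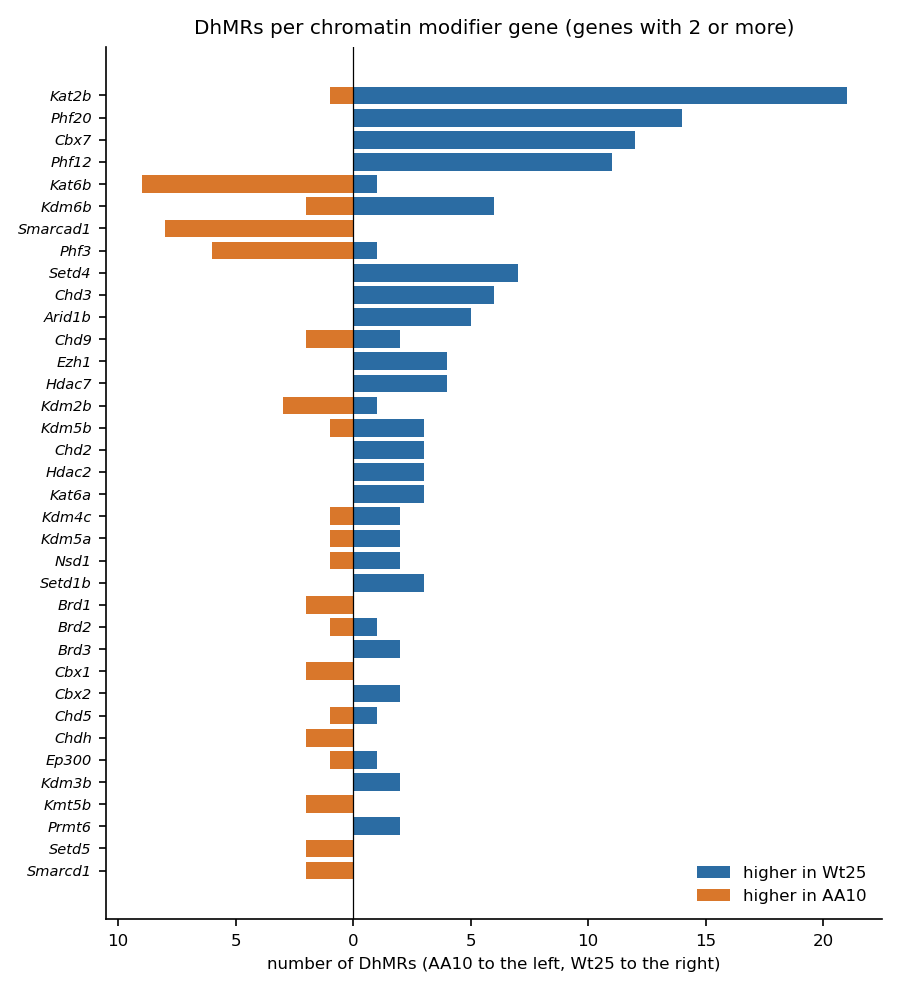
Number of DhMRs of each chromatin modifier gene with 2 or more, drawn to the right for those higher in Wt25 (blue) and to the left for those higher in AA10 (orange). Kat2b, Phf20, Cbx7 and Phf12 have the longest bars to the right, with 21, 14, 12 and 11 DhMRs, and Kat6b and Smarcad1 the longest to the left, with 9 and 8.

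Among the acetyltransferases, Kat2b stood out with 22 DhMRs, of which 21 were higher in Wt25 and 1 in AA10. Kat2b (ENSMUSG00000000708, chr17:53566861-53672720) encodes the acetyltransferase PCAF, and it ranked 65th of all 20807 genes by number of DhMRs. All 18 DhMRs inside its span were higher in Wt25, 9 of them in intron 1 and 1 in coding exon 10 (the Kat2b sequence above, with 6 CpGs). The DhMR higher in AA10 lay 7.86 kb upstream, beside 3 higher in Wt25 at 9.46 to 10.7 kb upstream. In the authors' list 6 of the 18 carried the identifier of the neighbouring gene Sgo1, so counting by that identifier alone would place them elsewhere.

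Kat6b (chr14:21481434-21672478), which encodes an acetyltransferase of the MYST family, showed the opposite direction. It had 9 DhMRs higher in AA10 and 1 higher in Wt25. Inside its 191 kb, 7 were higher in AA10, and the only one higher in Wt25 lay between them in intron 2. The other 2 lay in Adk, 136 and 172 kb upstream. Kat6a, its close relative, had 3 DhMRs, all higher in Wt25 and 2 of them inside the gene. The other MYST genes Kat5, Kat7 and Kat8 had none. Ep300, a general co-activator with acetyltransferase activity, had 1 DhMR of each direction, both upstream of the gene (24.8 kb for Wt25 and 57.4 kb for AA10), and its relative Crebbp had none. The 10 acetyltransferase genes together had 27 DhMRs higher in Wt25 and 11 in AA10, and without Kat2b 6 and 10. The class therefore changed sides with 1 gene.

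The deacetylases, which remove the same mark, had DhMRs at 2 of 9 genes (22.2%, against 34.9% of all genes). Hdac7 (class IIa) had 4 and Hdac2 (class I) 3, and all 7 were higher in Wt25 (100%, interval 64.6 to 100). In Hdac7, 1 of the 3 inside the gene covered coding exon 9, and the fourth lay 19.7 kb upstream, in Vdr. None of the 3 DhMRs of Hdac2 was inside the gene: they lay 77.1 and 47.1 kb upstream and 1.51 kb downstream. Hdac1, Hdac3, Hdac4, Hdac5, Hdac9, Hdac10 and Hdac11 had none.

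At PRC2 genes 80.0% of 5 DhMRs and at PRC1 chromobox genes 100% of 16 were higher in Wt25, against 58.8% over all genes. Of those higher in Wt25, Ezh1 gave all 4 at PRC2 genes and Cbx7 12 of the 16. DhMRs were at 2 of 6 PRC2 genes (33.3%) and 4 of 5 chromobox genes (80.0%), against 34.9% of all genes. Ezh1, one of the alternative catalytic subunits of PRC2, had 4 DhMRs higher in Wt25, 3 of them in introns and 1 with 11 CpGs 8.14 kb upstream. Ezh2, the other catalytic subunit, had 1 DhMR, higher in AA10, in intron 1. The core subunits Eed and Suz12 and the accessory genes Phf1 and Phf19 had none. All 16 DhMRs of the PRC1 chromobox genes were higher in Wt25: 12 at Cbx7, 2 at Cbx2 and 1 each at Cbx6 and Cbx8. Of the HP1 genes, whose products bind methylated H3K9, Cbx1 had 2 DhMRs higher in AA10 and Cbx3 and Cbx5 had none. The 16 came from 2 loci, with 13 at Cbx6 and Cbx7 within 126 kb of chromosome 15 and 3 at Cbx2 and Cbx8 within 34.2 kb of chromosome 11, so they are not separate instances.

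Cbx7 (chr15:79915807-79971119, minus strand) encodes a chromobox subunit that is prominent in embryonic stem cells. Its 12 DhMRs were at a density of 21.7 per 100 kb. The promoter held 2 of them, centred 62 and 862 bp before the start of its longest coding transcript, with 30 and 14 CpGs. Downstream of that start, 2 lay in intron 1 and 1, with 11 CpGs, in coding exon 5. The other 7 lay 2.06 to 25.7 kb before the start. They were inside the gene's annotated span, which reaches further upstream, but in no transcript of the basic annotation. The Cbx7 neighbourhood was also the densest one around the genes with 3 or more DhMRs: within 100 kb of the gene there were 31 further DhMRs, and all 31 were higher in Wt25.

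The Phf genes, a class set by symbol and not by function, had 29 DhMRs higher in Wt25 and 9 higher in AA10. They were at 9 of 20 genes (45.0%, against 34.9% of all genes). Phf20 (chr2:156196466-156309952), whose product belongs to a complex with the acetyltransferase Kat8, had 14, all inside the gene and all higher in Wt25. They were intronic, between intron 2 and intron 15, with 1 to 5 CpGs each. The authors' list gave 12 of the 14 the identifier of Cnbd2. Phf12 (chr11:77982754-78030539), a partner of Sin3 deacetylase complexes, had 11 higher in Wt25, of which 7 were inside the gene and 4 upstream in Sez6. Phf3, which encodes a protein that binds RNA polymerase II, went the other way: 6 DhMRs were higher in AA10 and 1 in Wt25. Inside the gene its 3 DhMRs, all in intron 2, were higher in AA10. The others were 33.1 to 252 kb downstream, and the one higher in Wt25 lay before the start of a pseudogene there. With Phf20 left out, the class had 15 higher in Wt25 and 9 in AA10. By the deposited identifier alone it had 11 and 9, since 12 DhMRs in Phf20 and 6 in Phf12 carried the identifiers of Cnbd2 and Dhrs13.

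**Figure D2:**
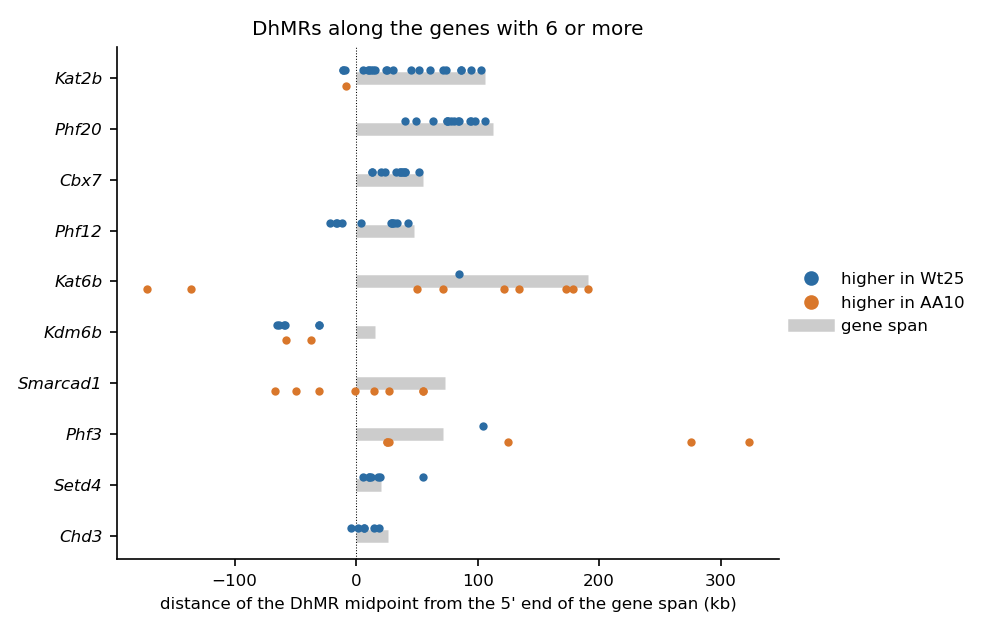
Position of each DhMR (points, blue for higher in Wt25 and orange for higher in AA10) along the 10 genes with 6 or more, in kb from the 5′ end of the gene span, with the span as a grey bar. Points of Kat2b, Phf20, Cbx7 and Setd4 run along the gene, while those of Kdm6b all lie 30.1 to 64.7 kb upstream of it.

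Bromodomain genes had 6 DhMRs higher in Wt25 and 3 higher in AA10. Of the BET genes, whose products bind acetylated histones, Brd2 had 1 of each direction, Brd3 had 2 higher in Wt25 and Brdt had none. Brd7 and Brd9, which encode subunits of SWI/SNF variants, had 1 DhMR each, both higher in Wt25. That of Brd7 was 907 bp before its start site. That of Brd9 was in its intron 2, and also 917 bp before the start of Trip13 on the opposite strand. Brd1, a scaffold of MYST acetyltransferase complexes, had 2 DhMRs higher in AA10, 1 at the end of the gene and 1 with 10 CpGs in coding exon 6.

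The 24 remodeller genes were the most evenly divided class. DhMRs were found at 15 of them (62.5%, against 34.9% of all genes). Higher in Wt25 were 20 and in AA10 18 (52.6%, 37.3 to 67.5, which includes the 58.8% over all genes). Smarcad1 (chr6:65042583-65116061), an ATPase of the SNF2 family, had 8, all higher in AA10. Inside the gene there were 4, and the other 4 were upstream, 1 of them in the promoter, 708 bp before the start site. Without Smarcad1 the class had 20 higher in Wt25 and 10 in AA10. Without chromosome 6, which also holds Chd4, 20 of 29 were higher in Wt25 (69.0%, against 61.4% over all genes there). Chd3, an ATPase of the nucleosome remodelling and deacetylase complex NuRD, had 6 higher in Wt25, 5 of them inside the gene. Its paralogue Chd4 had 1 higher in AA10, and Chd5 1 of each direction. With Hdac2, the NuRD genes had 10 DhMRs higher in Wt25 and 2 in AA10 (83.3%, 55.2 to 95.3, against 58.8% over all genes). Without Chd3 they had 4 and 2, and 3 of these 4 were those of Hdac2, outside that gene. Hdac1 had none. Chd2 had 3 higher in Wt25, 1 of them in coding exon 19. Chd9 had 2 of each, with those higher in Wt25 201 kb upstream and those higher in AA10 inside the gene.

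For the SWI/SNF (BAF) complex, 8 of 14 genes had a DhMR (57.1%, against 34.9% of all genes). Of its DhMRs, 8 were higher in Wt25 and 5 in AA10 (61.5%, 35.5 to 82.3, near the 58.8% over all genes). Arid1b, which encodes a DNA-binding subunit, had 5 in its introns, all higher in Wt25, and without it the complex had 3 and 5. Its paralogue Arid1a had none, nor had the core subunit Smarcb1 or the ATPase gene Smarca4. The alternative ATPase gene Smarca2 had 1 DhMR higher in AA10, and so had Smarcc1 and Smarcc2, while Smarce1 had 1 higher in Wt25. Smarcd1 had 2 DhMRs higher in AA10 in its promoter, side by side, 228 and 428 bp before the start site, with 9 and 8 CpGs. Its relatives Smarcd2 and Smarcd3 and the subunit gene Phf10 had none.

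Lysine methyltransferases had 15 DhMRs higher in Wt25 and 8 in AA10 (65.2%, 44.9 to 81.2, against 58.8% over all genes). They were at 11 of 21 genes (52.4%, against 34.9% of all genes). Setd4, a SET-domain gene of only 20.6 kb on chromosome 16, had 7 higher in Wt25, 6 of them inside the gene, a density of 29.1 per 100 kb. One of the 6 was in coding exon 6. Another was in intron 6 at the start of an antisense transcript, and is the Setd4 sequence above. Without Setd4 the class was even, with 8 and 8. Writers of H3K4 methylation had a DhMR at 5 of 6 genes (83.3%, against 34.9% of all genes). The 6 genes spanned 19.9 to 227 kb, against a median of 17.6 kb over all genes, and were not matched for length. Higher in Wt25 were 3 at Setd1b and 1 each at Kmt2a and Kmt2c, and higher in AA10 1 each at Kmt2b and Kmt2d. Setd1a had none. Of the 3 at Setd1b, 2 were in the 3′ UTR, 1 with 11 CpGs.

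None of the 4 genes for H3K9 writers in the selection, Ehmt1, Ehmt2, Setdb1 and Setdb2, had a DhMR. Of all 134 selected genes 48.5% had none, and of all autosomal protein-coding genes 65.1%. Nsd1, a writer of H3K36, had 2 higher in Wt25 and 1 in AA10, and Setd2 had none. Of the H4K20 writers, Kmt5a had 1 higher in Wt25, 792 bp before the start of its longest coding transcript, Kmt5b had 2 higher in AA10, and Kmt5c had none. Setd5, a SET-domain gene on chromosome 6, had 2 higher in AA10. The arginine methyltransferases had 4 DhMRs, all higher in Wt25, at Prmt1, Prmt7 and Prmt6. The 2 assigned to Prmt6 were 630 and 755 kb upstream of the gene.

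Lysine demethylases had 18 higher in Wt25 and 9 in AA10 (66.7%, 47.8 to 81.4, against 58.8% over all genes). They were at 9 of 15 genes (60.0%, against 34.9% of all genes). The largest number was assigned to Kdm6b, an eraser of H3K27 methylation, with 6 higher in Wt25 and 2 in AA10. All 8 were in the gene Dnah2, 30.1 to 64.7 kb upstream of Kdm6b, and none was inside Kdm6b. One of the 2 higher in AA10 covered a coding exon of Dnah2. Of the H3K4 erasers, Kdm5b had 3 higher in Wt25 and 1 in AA10, Kdm5a 2 and 1, and Kdm1b 1 higher in AA10, while Kdm1a had none. Of the H3K36 erasers, Kdm2b, which binds unmethylated CpGs, had 1 higher in Wt25 and 3 in AA10, and Kdm2a had 1 higher in Wt25 with 13 CpGs in coding exon 17. Kdm4a had 1 higher in Wt25, Kdm4c had 2 and 1, and Kdm4b had none. Kdm3b, an eraser of H3K9 methylation, had 2 higher in Wt25, 1 of them in coding exon 8.

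**Figure D3:**
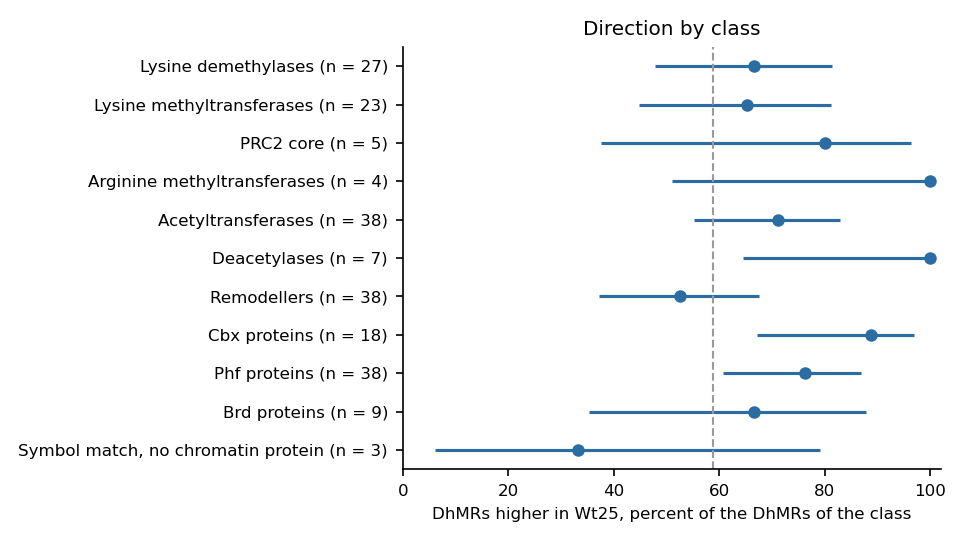
Share of DhMRs higher in Wt25 in each class, in percent of the DhMRs of the class (points, n in brackets), with 95% Wilson intervals (lines) that cover counting error only, and the 58.8% over all autosomal protein-coding genes (dashed line). The intervals of the deacetylases, Cbx proteins and Phf proteins lie above the dashed line, and the gene with most DhMRs holds 4 of 7, 12 of 18 and 14 of 38 of them.

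The direction also differed between chromosomes. On chromosome 6, where 12.0% of all DhMRs were higher in Wt25, 2 of the 16 DhMRs of chromatin genes (12.5%) were. The 6 genes concerned were Smarcad1 (8 higher in AA10), Setd5 (2), Ezh2, Chd4 and Phf14 (1 each) and Kdm5a, the only one with DhMRs higher in Wt25 (2, with 1 higher in AA10). Off chromosome 6, 145 of 194 were higher in Wt25 (74.7%, 68.2 to 80.3), against 61.4% of the DhMRs of all genes there. The 145 include the 21, 14, 12 and 11 of Kat2b, Phf20, Cbx7 and Phf12, and this share was not computed without these genes. The chromatin genes did not follow their chromosome everywhere. On chromosome 14, 73.1% of all DhMRs were higher in Wt25, but 2 of 14 at chromatin genes were, 9 of the 12 higher in AA10 being those of Kat6b. On chromosomes 2 and 17 the counts were 18 to 0 and 28 to 2 in favour of Wt25, with Phf20 and Kat2b giving most of each. Had each of the 210 DhMRs the Wt25 share of its own chromosome, the mean would be 59.2%.

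DhMRs around a chromatin gene mostly had the direction of the gene's own. Around the 36 genes whose own DhMRs were all higher in Wt25, 131 of the 156 other DhMRs within 100 kb were also higher in Wt25 (84.0%, 77.4 to 88.9, and 81.6% without Cbx7). Around the 20 genes with DhMRs higher in AA10 only, 7 of 39 were higher in Wt25 (17.9%, 8.98 to 32.7). The same was seen at genes in general, at 82.1% around the 3713 genes of the first kind and 26.1% around the 2512 of the second, so it was no property of chromatin genes alone. At Kdm6b and Chd3, which lie on the same stretch of chromosome 11, 18 and 17 others higher in Wt25 were found, each count including DhMRs of the other gene. No other DhMR lay within 100 kb of Kat6b, Chd9, Kdm5b, Hdac2, Kdm4c or Nsd1. Among the genes with 3 or more DhMRs, the others around Kat6a and Kdm5a were all higher in AA10 (2 and 3), unlike most of their own. Both of the 2 others around Phf3 were higher in Wt25, while 6 of its own 7 were higher in AA10.

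**Figure D4:**
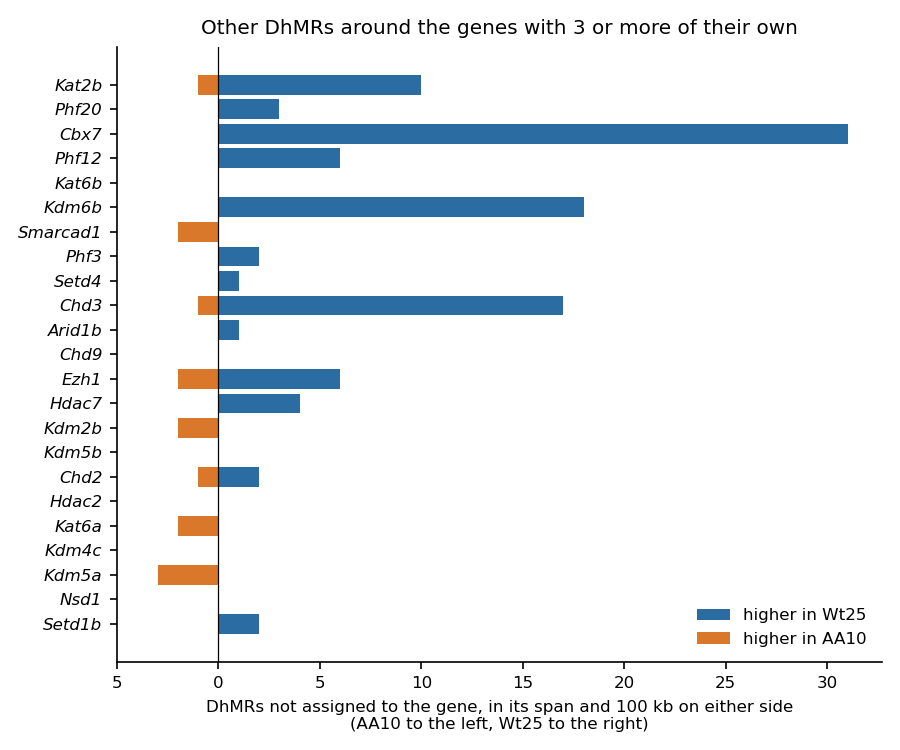
Number of DhMRs not assigned to the gene, in its span and within 100 kb on either side, for the 23 genes with 3 or more DhMRs of their own, to the right for those higher in Wt25 (blue) and to the left for those higher in AA10 (orange). Cbx7 has 31 and Kdm6b 18, all higher in Wt25, and Kat6b has none.

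Most of the 210 DhMRs were intronic: 140, or 66.7% (60.0 to 72.7), against 50.7% of the DhMRs of all protein-coding genes. Intergenic ones made up 18.6%, against 34.2%. Of the 140 intronic ones, 121 lay inside the span of a chromatin gene, and 14 and 11 were those of Phf20 and Phf12. The compared sets were not matched for gene length. Promoter DhMRs, from 1 kb before to 100 bp after any annotated start site, numbered 11 (5.24%, against 5.04%). Of these, 7 were at a start site of the chromatin gene itself, 4 higher in Wt25 (2 at Cbx7, 1 each at Brd7 and Kmt5a) and 3 higher in AA10 (2 at Smarcd1, 1 at Smarcad1). The other 4, assigned to Brd9, Chd3, Phf3 and Setd4, were at start sites of other genes. Coding exons held 9 (4.29%, against 3.31%), 7 of them higher in Wt25, and 3′ UTRs held 7 (3.33%, against 1.76%). Of the 155 inside a span, 43 lay in the first part of the gene when it was cut in 3 equal parts, 51 in the middle and 61 in the last.

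The DhMRs of chromatin genes had 3.53 ± 3.12 CpGs (SD, n = 210, median 3), close to the 3.20 ± 2.44 of all autosomal DhMRs. Those higher in Wt25 had 3.75 on average and those higher in AA10 3.02, against 3.24 and 3.15 over all autosomal DhMRs. The 3.75 includes the Cbx7 promoter DhMR with 30 CpGs. With 10 or more CpGs there were 9 (4.29%, against 2.17%), and they included the Cbx7, Kdm2a and Brd1 sequences above. The site CCGG, which MspI cuts, was present in 22.9% (17.7 to 29.0), against 21.6% of all autosomal DhMRs. Sequence marked as repeat made up 50% or more of 24.8% of them, against 26.3%. None of the 210 lay in a dense run of 20 or more DhMRs of one direction with gaps of up to 10000 bp, where 15.2% of all autosomal DhMRs lay.

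How a DhMR was tied to a gene changed the number more than the direction. Both the span and the deposited identifier pointed to the chromatin gene for 94 DhMRs, of which 71.3% were higher in Wt25. The span alone did so for 61 (75.4%), of which 59 carried another gene's identifier. The identifier alone did so for 55 (61.8%), at a median of 25.6 kb and at most 755 kb from the gene, 17 of them inside another protein-coding gene. With the span only, 55 of the 134 genes had a DhMR (41.0%), against 21.9% of all genes.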

How the data were processed

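The authors aligned 5hmC-DIP reads to GRCm38, removed duplicates, used MEDIPS to call 200-bp bins that differed between the lines, from 3 libraries per line, removed bins in IgG peaks or simple repeats, and annotated the rest with HOMER; the tools' versions are not given in the sources used here. The 2 deposited lists hold positions and a gene identifier, and no count, fold change, P-value or depth, so the precision of a single DhMR is unknown. The series has 24 samples; RNA-seq and H3K27ac were not analysed here, and only the lists were used, which hold 0 columns of single samples.

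A DhMR belonged to a gene when it lay wholly inside the GENCODE vM21 span or carried its Ensembl identifier. Features were read at the midpoint from the basic transcripts, in the order promoter (1 kb before to 100 bp after a start site), termination site (100 bp before to 1 kb after the end), coding exon, 5′ UTR, 3′ UTR, intron. Sequences came from RefSeq's GRCm38.p6. Exon and intron numbers are those of the longest coding transcript. Genes named are those with 3 or more DhMRs, both directions, a promoter or coding exon DhMR, or on chromosome 6, and the members of the substrate groups and complexes, some of which are not reported here. The members and lists were chosen with earlier results of these data known. Counting functions were tested on simulated data. Python 3.11.15, pandas 2.3.3, numpy 2.4.6, scipy 1.17.1 and matplotlib 3.10.9 were used.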

Additional observations from a re-analysis of the deposited data

How the results depend on the processing

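The share higher in Wt25 stayed within its interval of 63.5 to 75.8% under these settings, from 67.0% without Kat2b to 74.7% without chromosome 6: span only (72.9%), deposited identifier only (67.8%), midpoints, RefSeq gene models (69.9%), joined DhMRs (68.6% where touching, 67.4% within 1 kb), without the 6 genes that are no chromatin proteins (70.5%) and outside repeats (72.2%). The number of DhMRs went from 149 to 210 and that of genes from 55 to 69. Settings chosen after the data had been seen moved the values further: the share was 61.7% without the 3 genes with most DhMRs and 58.9% without 4, and the density inside genes was 13.4 per Mb, in place of 18.1, without Kat2b, Phf20 and Cbx7. By class, more DhMRs were higher in Wt25 than in AA10 in 10 of 11, but the share was over the 58.8% of all genes in 9, and 3 intervals lay above it. The exception, the 6 genes that are no chromatin proteins, reversed from 33.3% of 3 to 100% of 1 with the span only. The Phf share was 55.0% by identifier only, and the remodeller share 69.0% without chromosome 6. CpG number and intron share changed little (3.53 to 3.75, and 65.7 to 67.0%). No paired analysis was possible because the lists give no value per library, and for the same reason no replicate could be left out.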

Other observations

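At the 65 chromatin genes without a DhMR of their own, 19 also had none within 100 kb. Around the rest there were 164 DhMRs, of which 108 were higher in Wt25 (65.9%, 58.3 to 72.7), against 58.3% around all 13553 genes without one. The neighbourhood of Kmt5c alone gave 29, all higher in Wt25, and without it, a setting chosen after the data had been seen, the share was 58.5% (79 of 135).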
